A study of Mus musculus with 12 samples.

Results

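Genes of the immediate early and stress response, namely Fos, Fosb, Jun, Junb, Egr1, Ier2, Atf3, Klf2, Klf4 and Dusp1, were followed through the 12 RNA-seq libraries of the study. They were chosen by name, 10 of the 54532 mouse genes of the count table, with earlier results of these same libraries in view, so their differences are a description and not an independent test of the family. The libraries came from liver and subcutaneous fat of male mice that received an adeno-associated virus (AAV8) at 10 weeks of age and a low-fat diet for the 16 weeks that followed. The hHKDC1 OE mice received AAV8-TBGp carrying full-length human HKDC1, a hexokinase gene, and the null mice received AAV8-TBGp without it. The thyroxine-binding globulin promoter (TBGp) is active in hepatocytes, so fat itself was not the target of the vector. Each tissue had 3 null and 3 hHKDC1 OE libraries, named here by the replicate number of their titles. The labels also describe hHKDC1 OE replicates 2 and 3 of each tissue as knockouts, and these were kept in the group of their titles. Nothing in the labels says whether liver and fat libraries of the same number came from the same mouse. Human HKDC1 was not analysed here.

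Immediate early genes are switched on within minutes of a signal and need no new protein for it. Kinases of the MAPK family act on factors that already sit at their promoters, such as CREB, MEF2 and the partners of serum response factor. Fos, Fosb, Jun and Junb encode subunits of the dimeric transcription factor AP-1, and Atf3 encodes a related leucine zipper protein of the stress response. Egr1 is a zinc finger activator and Ier2 a nuclear protein of the same early wave. Klf2 and Klf4 are Kruppel-like zinc finger factors that are well known in endothelium, where blood flow induces them, and Klf2 also keeps lymphocytes quiescent. Dusp1 is a phosphatase that shuts MAPK signalling off again. The mRNAs are short-lived, and handling of tissue is known to induce several of these genes.

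Promoters are shown for Junb and Klf2, whose groups did not overlap in either tissue, for Jun and Atf3, which share the MEF2 site with Klf2, and for Fos, the classical immediate early gene, with its TATA box. The set of RefSeq promoters on GRCm38.p6 used here matched 8 of the 10 genes, and Egr1 and Ier2 were not matched in that set. The 250 bases before the RefSeq start of each gene are printed 5′ to 3′ on the strand of the gene. Capitals mark the core of the cAMP response element (TGACG on either strand), the MEF2 site and the TATA box (TATAAA). The windows lie at chr8:84978749-84978998 on the minus strand for Junb, chr8:72318812-72319061 on the plus strand for Klf2, chr4:95052223-95052472 on the minus strand for Jun, chr1:191183334-191183583 on the minus strand for Atf3 and chr12:85473640-85473889 on the plus strand for Fos. The start used for Atf3 lies inside the longer gene model of the count table, and the window of Klf2 runs past the start of its model there at position 72319033.
Junb: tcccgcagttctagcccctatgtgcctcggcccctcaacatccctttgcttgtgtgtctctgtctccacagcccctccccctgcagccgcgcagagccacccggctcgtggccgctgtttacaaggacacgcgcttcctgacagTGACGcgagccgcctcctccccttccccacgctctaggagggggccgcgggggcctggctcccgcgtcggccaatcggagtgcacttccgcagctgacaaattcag
Klf2: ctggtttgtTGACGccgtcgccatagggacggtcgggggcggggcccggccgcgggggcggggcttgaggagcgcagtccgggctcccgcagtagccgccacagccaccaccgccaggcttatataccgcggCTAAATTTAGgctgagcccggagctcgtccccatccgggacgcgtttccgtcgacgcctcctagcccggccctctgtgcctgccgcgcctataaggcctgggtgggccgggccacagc
Jun: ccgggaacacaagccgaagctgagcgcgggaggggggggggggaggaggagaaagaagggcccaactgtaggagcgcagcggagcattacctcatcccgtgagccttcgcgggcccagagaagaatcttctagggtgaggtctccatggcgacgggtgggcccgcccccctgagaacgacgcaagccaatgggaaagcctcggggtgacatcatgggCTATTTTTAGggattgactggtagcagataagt
Atf3: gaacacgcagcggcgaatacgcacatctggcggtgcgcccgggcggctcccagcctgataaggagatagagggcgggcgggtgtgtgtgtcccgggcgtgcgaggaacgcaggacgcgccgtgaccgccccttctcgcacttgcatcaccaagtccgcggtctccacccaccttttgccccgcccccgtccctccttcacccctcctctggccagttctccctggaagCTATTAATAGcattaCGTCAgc
Fos: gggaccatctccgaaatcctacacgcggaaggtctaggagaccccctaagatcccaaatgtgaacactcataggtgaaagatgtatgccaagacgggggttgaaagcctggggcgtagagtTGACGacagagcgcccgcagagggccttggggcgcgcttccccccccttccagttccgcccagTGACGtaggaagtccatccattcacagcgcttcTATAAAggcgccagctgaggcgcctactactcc

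The MEF2 site, searched on both strands by its name, was in 3 of the 8 promoters (Jun, Klf2 and Atf3) and in 0.508% of 32851 mouse promoters of the same length. The core TGACG was in 7 of 8 against 17.8%, and the complete cAMP response element TGACGTCA, which contains that core, was in Dusp1 alone against 1.55%. The TATA box was in Fos alone of the 8 against 12.4%, and the letters of an EGR site (GCGNGGGCG) in Fosb, Klf2 and Klf4 against 4.70%. The GC box GGGCGG, which can overlap the EGR site, was in 7 against 32.7%, and GGGTG, the core of a Kruppel-like factor site, in 6 against 52.0%. The share of G and C bases in the 8 windows ranged from 58.4% (Fos) to 74.0% (Klf4). The median over all promoters was 52.4%. The promoters compared were not matched for this share, which bears on letters rich in G and C. The AP-1 letters TGANTCA (6.75% of all promoters), the CArG box (1.47%) and TGTTCT, a part of the glucocorticoid response element (16.1%), were in 0 of the 8 windows, which says only that these letters are not in these bases. The median intronic share of the 10 genes was 30.1%, against 81.6% for the 14420 protein-coding genes tested in either tissue. Jun and Ier2 have no intron, whereas Atf3 and the GENCODE M21 model of Dusp1 were 95.5% and 94.1% intronic. The libraries keep no strand, and Junb shares 173 exonic bases with Prdx2 on the other strand, Jun 232 bases with Junos and Dusp1 11 bases with Ergic1, counted on GENCODE M21. The model of Dusp1 there is longer than in the count table.

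The levels of the 10 genes per length differed widely in null liver. The unit is the authors' FPKM, fragments normalized for gene length and library size. Dusp1 was highest at 38.8 ± 10.9 FPKM (SD, n = 3), followed by Ier2 at 24.0 ± 2.29. Junb at 12.5 ± 1.63, Klf2 at 11.7 ± 2.57 and Jun at 9.25 ± 3.25 formed a middle tier whose neighbours overlapped between libraries. Egr1 at 1.29 ± 0.436, Klf4 at 0.944 ± 0.303 and Atf3 at 0.394 ± 0.234 each overlapped with the next gene below, the last of them with Fos at 0.289 ± 0.187. Fosb was near the limit at 0.0133 ± 0.0230 FPKM and did not overlap with Fos. In null fat, Klf2 led at 26.5 ± 3.17 FPKM and overlapped with Dusp1 at 24.1 ± 3.10, which in turn overlapped with Jun at 20.2 ± 6.48. Klf4 was at 12.2 ± 2.41, Ier2 at 8.50 ± 1.97, Junb at 4.34 ± 0.737, Fos at 4.24 ± 2.03, Egr1 at 3.06 ± 0.366, Atf3 at 1.21 ± 0.186 and Fosb at 0.215 ± 0.115.

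**Figure D1:**
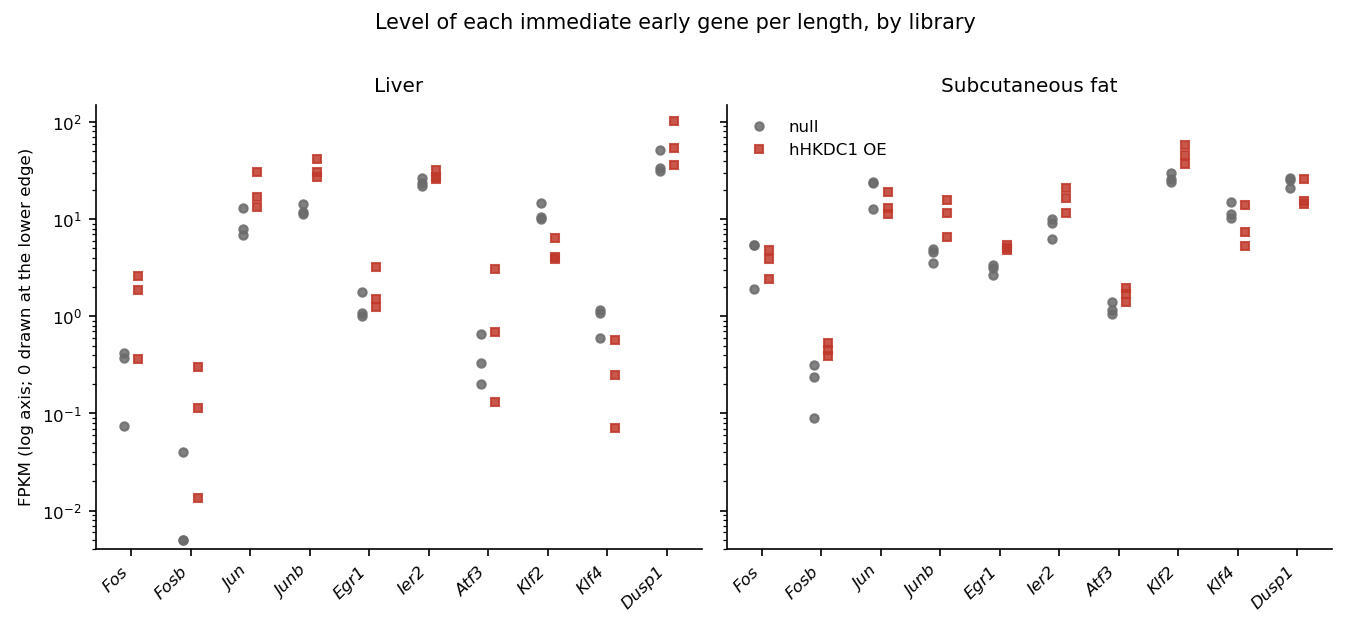
Level of each gene in FPKM (log axis, a value of 0 drawn at the lower edge) in the 12 libraries, liver at left and subcutaneous fat at right, with grey circles for null and red squares for hHKDC1 OE. In liver Klf2 and Klf4 lie lower in hHKDC1 OE and Junb higher, and in fat Klf2 and Junb lie higher in hHKDC1 OE.

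Between the null groups, all 10 genes passed the test of fat against liver. With edgeR (quasi-likelihood, p adjusted after Benjamini and Hochberg) 64.3% of the 15259 genes tested did so, 33.8% higher in fat and 30.5% lower. Klf4 was higher in fat by 3.64 on the log2 scale (standard error 0.27, adjusted p = 1.81e-05), Fos by 3.81 (0.64, adjusted p = 0.00115) and Fosb by 3.82 (1.05, adjusted p = 0.0131). The value of Fosb rests on 3 counts in replicate 3 of null liver, as the other null liver libraries had 0. Klf2, Egr1, Jun and Atf3 were higher in fat by 1.12, 1.19, 1.08 and 1.54. Junb was lower in fat by a log2 fold change of -1.58 (0.18, adjusted p = 0.000157) and Ier2 by -1.56 (0.19, adjusted p = 0.000229). Dusp1 was lower by -0.74 (0.22, adjusted p = 0.0186), with -0.59 and an adjusted p of 0.0505 under upper-quartile normalization and with the direction turned to 0.14 under library size alone. The other 9 genes kept their direction under both of these scalings, where the median over all genes was 0.25 and 0.98 in place of 0.09. The share of calls that were higher in fat was 52.6%, and 79.8% under library size alone. On leaving out each of the 6 null libraries in turn, Atf3 missed the threshold in 4 fits, Jun in 3 and Fosb in 1. The lowest count was 7 genes, without replicate 2 of null liver, against 55.2% of all genes. With the 12 libraries in 1 fit, Atf3 (adjusted p = 0.123) and Dusp1 (adjusted p = 0.0832) missed it and 8 passed. Of the other immediate early transcription genes, 10 of 21 passed as higher in fat and 6 as lower, and of the feedback genes 15 and 10 of 34. Of the heat shock genes, chaperones of the stress response, 2 of 15 passed as higher and 9 as lower in fat.

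**Figure D2:**
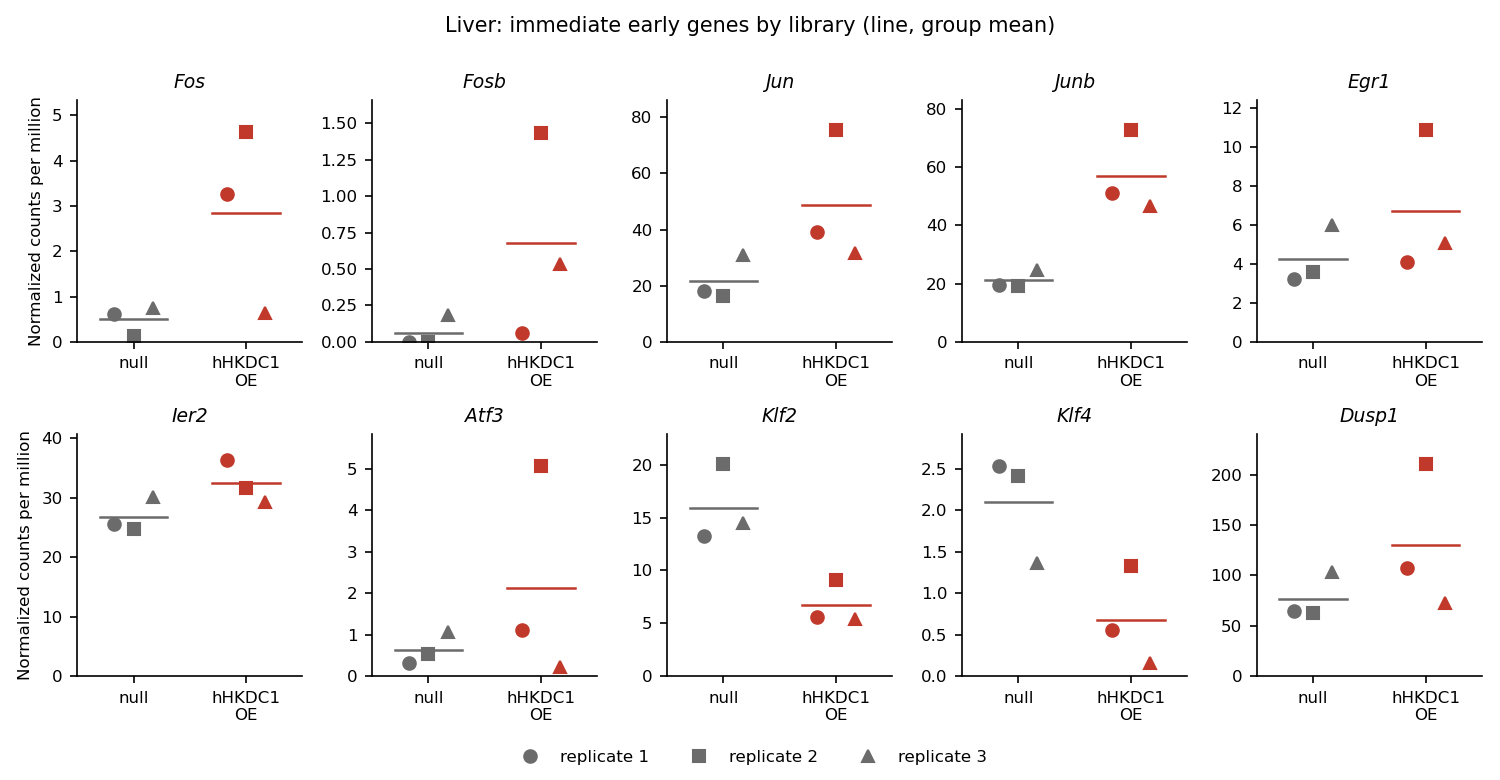
Normalized CPM (linear axes from 0) of each gene in the 6 liver libraries, with the marker shape giving the replicate number and a line at the group mean. Replicate 2 of hHKDC1 OE is the highest library for 7 of the 10 genes, and Klf2 and Klf4 are lower in all 3 hHKDC1 OE libraries.

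In liver, Junb and Jun were higher and Klf2 and Klf4 lower in each hHKDC1 OE library than in any null library. These 4 of the 9 genes tested compare with 12.5% of all 13351 genes tested whose groups did not overlap, 6.31% higher and 6.18% lower. The 2 AP-1 genes and the 2 Kruppel-like factor genes thus lay on opposite sides of null. No gene tested passed edgeR's adjusted p of 0.05 in liver (0% of 13351), and 0 of the 9 did. At an unadjusted p under 0.05 there were 5 of the 9 (Fos, Jun, Junb, Klf2 and Klf4) against 6.94% of all genes, and DESeq2 called 3 (Jun, Junb and Klf2) against 0.736%. The median log2 fold change of the 9 genes was 0.76, beside 0.01 over all genes.

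Junb, whose product is an AP-1 subunit that can restrain Jun, was at 19.4, 19.2 and 24.7 CPM in null liver and at 51.3, 72.8 and 46.6 CPM in hHKDC1 OE liver. CPM are counts scaled to the library size, normalized within the tissue. All 3 hHKDC1 OE libraries were above all 3 null libraries, at 56.9 ± 14.0 against 21.1 ± 3.10 CPM (SD, n = 3). This was 2.70-fold, or 1.43 on the log2 scale (standard error 0.20), with an adjusted p of 0.149 by edgeR and 2.45e-07 by DESeq2. Prdx2, the overlapping gene, was at -0.07 in the same fit. An exact permutation test, two-sided, gave p = 0.1 for Junb and for each of the 3 other genes whose groups did not overlap, which is the smallest p that 3 libraries against 3 allow.

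Jun itself was at 18.0, 16.2 and 30.9 CPM in null liver and at 39.3, 75.3 and 31.7 CPM in hHKDC1 OE liver. The highest null and the lowest hHKDC1 OE library were nearly level, and the log2 fold change was 1.17 (0.34, adjusted p = 0.520 by edgeR). Fos, the partner of Jun in AP-1, had 10, 2 and 12 counts in null liver and 53, 87 and 12 counts in hHKDC1 OE liver. Replicate 3 of hHKDC1 OE stood at the null level, and the log2 fold change of 2.49 had a standard error of 0.78 (adjusted p = 0.554). Fosb had 0, 0 and 3 counts in null liver and 1, 27 and 10 in hHKDC1 OE liver, too few to pass the filter on low counts, where a count of 0 allows up to 3. Its groups overlapped.

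Klf2 was at 13.3, 20.1 and 14.4 CPM in null liver and at 5.60, 9.10 and 5.44 CPM in hHKDC1 OE liver. Every hHKDC1 OE library was below every null library, and the log2 fold change was -1.24 (0.26). The adjusted p was 0.355 by edgeR and 0.00487 by DESeq2. Klf4 was at 2.53, 2.41 and 1.36 CPM against 0.553, 1.33 and 0.160 CPM, from 22 to 41 counts in null and 3 to 25 counts in hHKDC1 OE libraries. Its log2 fold change was -1.61 (0.66, adjusted p = 0.664), and the lowest null library stood barely above the highest hHKDC1 OE library. It was -2.56 without replicate 2 of hHKDC1 OE and -1.14 without replicate 3. Endothelial markers were also lower on average in hHKDC1 OE liver, although their sums overlapped between the groups. The 9 markers summed to 117, 133 and 101 CPM in null liver and to 59.8, 104 and 59.6 CPM in hHKDC1 OE liver, and 9 of 9 had a log2 fold change below 0 (-1.36 to -0.22). Per 100 CPM of these markers, a ratio chosen after the values were seen, Klf2 was at 11.3, 15.1 and 14.4 CPM in null and at 9.36, 8.71 and 9.13 CPM in hHKDC1 OE liver. The part of endothelial content in the Klf2 and Klf4 values was not tested, and in whole tissue fewer cells of a type and less RNA per cell cannot be told apart.

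Atf3 was at 0.309, 0.521 and 1.05 CPM in null liver and at 1.11, 5.05 and 0.213 CPM in hHKDC1 OE liver, so the lowest and the highest library belonged to the same group. Dusp1 was at 64.2, 63.1 and 103 CPM against 108, 211 and 73.0 CPM. Egr1 was at 3.21, 3.58 and 6.01 CPM against 4.12, 10.9 and 5.07 CPM. These 3 genes overlapped between the groups, and in each of them replicate 2 of hHKDC1 OE stood far above the rest. Their log2 fold changes were 1.75 (0.95), 0.76 (0.36) and 0.65 (0.40), and without that library they were 0.05, 0.23 and 0.11. Ier2 was the steadiest gene, at 25.5, 24.8 and 30.2 CPM against 36.4, 31.6 and 29.3 CPM, with a log2 fold change of 0.27 (0.15).

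Replicate 2 of hHKDC1 OE liver was the highest of the 6 libraries for 7 of the 10 genes, all but Ier2, Klf2 and Klf4. Within groups, Pearson's r over the 6 liver libraries was 0.99 for Jun with Junb, 0.99 for Junb with Dusp1, 0.98 for Jun with Dusp1 and 0.97 for Atf3 with Dusp1, a description over libraries that share this high replicate. Within the hHKDC1 OE group, the SD of log2 CPM of Atf3 was 1.98 and that of Fos 1.41. These were above 99.8% and 98.7% of all genes tested, where the median gene had 0.25. In null liver the SD was 0.73 for Atf3 and 0.98 for Fos, also above the median of 0.25 there. Fos had 53, 87 and 12 counts in hHKDC1 OE liver, so for Fos it was replicate 3 that stood apart. Both genes had few counts in null liver (Fos 2 to 12, Atf3 5 to 17), and the genes compared were not matched for level. The mitochondrial share of replicate 2 of hHKDC1 OE was 6.06%, the highest of the liver libraries. Without it the median of the 9 genes was 0.23 and edgeR called 2 of them, Junb at 1.21 (adjusted p = 0.0105) and Klf2 at -1.53 (adjusted p = 0.0198), among 146 of 13587 genes tested (1.07%). Jun was then at 0.71 (adjusted p = 0.349) and Fos at 1.94 (adjusted p = 0.440).

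Marker sums of other cell types are given for liver, where no gene tested passed an adjusted p of 0.05 by edgeR. The sums of smooth muscle, macrophage and Kupffer cell markers overlapped between the groups, and those of hepatocyte markers did not. Smooth muscle markers were at 14.9, 31.1 and 8.43 CPM in null and at 2.64, 8.83 and 3.36 CPM in hHKDC1 OE liver, with both markers tested lower (median -1.95 on the log2 scale), beside the lower Klf2 and Klf4. Macrophage markers ranged from 95.2 to 127 CPM in null and from 124 to 229 CPM in hHKDC1 OE liver, with 6 of 7 higher. The summed hepatocyte markers ranged from 123899 to 128594 CPM in null and from 76465 to 102800 CPM in hHKDC1 OE libraries. Kupffer cell markers ranged from 81.1 to 150 CPM in null and from 148 to 320 CPM in hHKDC1 OE liver, with replicate 1 of hHKDC1 OE at the top. B and T cell markers reached at most 3.97 and 8.68 CPM in a liver library, and the keratinocyte genes Krt5, Krt14, Krt1 and Krt15 were at 0. The part of these cells in the 10 genes was not tested.

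The wider immediate early program did not follow a common direction in liver. Of 24 other immediate early transcription genes, 17 were tested, 8 higher and 9 lower. Their median was -0.04 on the log2 scale, beside 0.01 over all genes. Nr4a1, an orphan nuclear receptor gene of the early wave, was at 3.65 (standard error 1.18, adjusted p = 0.586) and Klf10 at 1.03, while Ier5l was at -1.50 and Myc at -1.16. In hHKDC1 OE liver Nr4a1 was at 4.06, 55.4 and 2.08 CPM, against 0.926, 0.586 and 3.35 CPM in null. Its value rests mostly on replicate 2 of hHKDC1 OE. Myc was at 1.73, 1.76 and 69.4 CPM in null and at 2.64, 2.61 and 27.3 CPM in hHKDC1 OE liver. Its fall rests on replicate 3 of null, and the other null libraries lay below every hHKDC1 OE library. Of 37 feedback genes, 32 were tested, 18 higher and 14 lower (median 0.08), from Gadd45a at 1.52 and Socs3 at 0.91 to Gadd45g at -1.42 and Dusp8 at -1.71. Gadd45g was at 31.6, 42.7 and 225 CPM in null against 8.24, 63.3 and 40.0 CPM in hHKDC1 OE liver. Socs3 was at 1.67, 3.26 and 16.3 CPM against 11.9, 11.2 and 16.9 CPM. The values of both depend on replicate 3 of null. Of the other leucine zipper genes of the AP-1 and CREB families, 3 of 13 were higher and 10 lower (median -0.06), within a range from 0.20 for Nfe2l2 and 0.17 for Mafg to -0.45 for Maf and -0.56 for Jdp2. Of the kinases and serum response factor partners upstream, 15 of 29 were higher, with a median of 0.00, from Mapk7 at 0.55 and Rps6ka1 at 0.36 to Elk3 at -0.84 and Mef2c at -0.88. Of the other Kruppel-like factors 3 of 11 were higher, with Klf10 at 1.03, Klf12 at 0.19, Klf15 at -0.40 and Klf3 at -0.66 (median -0.10). Of the heat shock genes 5 of 15 were higher (median -0.15), from Hspb1 at 0.91 and Hspa4l at 0.32 to Dnajb1 at -0.41 and Hsph1 at -0.56. None of the genes of these lists passed an adjusted p of 0.05 by edgeR in liver, and 5 of 17, 3 of 32, 1 of 13, 2 of 29, 2 of 11 and 3 of 15, in the order given, had an unadjusted p under 0.05, beside 6.94% of all genes.

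**Figure D3:**
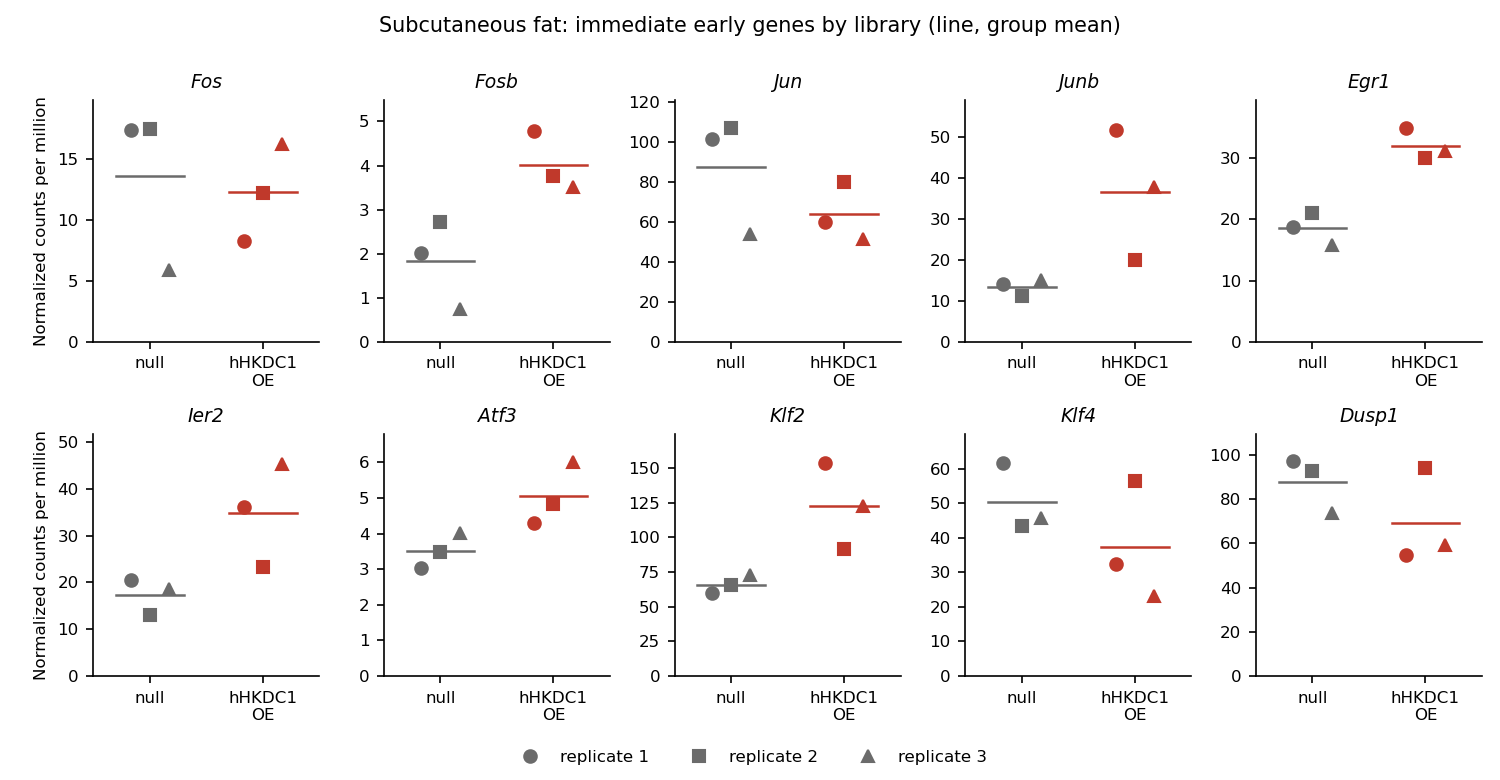
Normalized CPM (linear axes from 0) of each gene in the 6 subcutaneous fat libraries, with the marker shape giving the replicate number and a line at the group mean. The hHKDC1 OE libraries lie above all null libraries for Fosb, Junb, Egr1, Ier2, Atf3 and Klf2, and replicate 2 of hHKDC1 OE lies nearest to null for Junb, Ier2 and Klf2.

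In fat, 6 of the 10 genes (Junb, Fosb, Egr1, Ier2, Atf3 and Klf2) were higher in all 3 hHKDC1 OE libraries than in any null library. Over all 16380 genes tested the groups did not overlap for 22.7%, 12.5% higher and 10.2% lower. Jun, Fos, Klf4 and Dusp1 overlapped between the groups, and their log2 fold changes were below 0. No gene tested passed edgeR's adjusted p of 0.05 (0% of 16380), and 0 of the 10 did. At an unadjusted p under 0.05 there were 4 of the 10 (Junb, Egr1, Ier2 and Klf2) against 17.7% of all genes, and DESeq2 called the same 4 genes against 7.46%. The median of the 10 genes was 0.66, beside -0.05 over all genes. With library size alone the median of all genes moved to 0.11 and that of the 10 genes to 0.81.

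Junb was at 14.2, 11.2 and 15.03 CPM in null fat, against 51.6, 19.99 and 37.8 CPM under hHKDC1 OE. The groups stood apart, at 13.5 ± 2.03 against 36.5 ± 15.8 CPM (SD, n = 3), which is 1.44 on the log2 scale (0.35) at an adjusted p of 0.134 by edgeR. Prdx2 was at 0.03. Jun went the other way, at 101, 107 and 53.7 CPM in null fat against 60.1, 79.8 and 51.3 CPM, with a log2 fold change of -0.46 (0.29, adjusted p = 0.438). Per length, the ratio of Junb to Jun in FPKM was 0.194, 0.144 and 0.388 in null fat, against 1.19, 0.347 and 1.02 under hHKDC1 OE. In liver the ratio was 1.495, 1.64 and 1.11 in null and 1.81, 1.34 and 2.04 in hHKDC1 OE libraries. In both tissues the ratios of the groups overlapped.

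Fosb was at 2.01, 2.73 and 0.749 CPM in null fat, against 4.78, 3.76 and 3.50 CPM under hHKDC1 OE, with a log2 fold change of 1.14 (0.50, adjusted p = 0.292). Fos was at 17.3, 17.4 and 5.88 CPM against 8.29, 12.2 and 16.2 CPM, with a log2 fold change of -0.15 (0.45, adjusted p = 0.875) that turned to 0.03 under library size alone. Replicate 3 of null fat was the lowest null library for Fos, Fosb and Jun, and its skeletal muscle markers summed to 501 CPM, against 17778 and 21459 CPM in the other null libraries. The hHKDC1 OE libraries were at 14613, 997 and 2381 CPM for these markers, and their part in the AP-1 genes was not tested. Without that null library the log2 fold change of Fos was -0.53, that of Fosb 0.74 and that of Jun -0.72.

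Egr1 was at 18.8, 21.0 and 15.8 CPM in null fat, against 35.0, 30.0 and 31.2 CPM under hHKDC1 OE, and the groups stood apart. The log2 fold change was 0.79 (0.17, adjusted p = 0.133), and the SD of log2 CPM of 0.11 in the hHKDC1 OE group was above that of 9.88% of all genes, while that of 0.20 in null was above 40.9%. Ier2 was at 20.6, 13.1 and 18.5 CPM against 36.2, 23.3 and 45.4 CPM, with a log2 fold change of 1.00 (0.29, adjusted p = 0.164). Atf3 was at 3.04, 3.47 and 4.01 CPM against 4.31, 4.84 and 6.02 CPM, a small gap with a log2 fold change of 0.53 (0.30, adjusted p = 0.385).

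Klf2 was at 59.6, 65.4 and 73.2 CPM in null fat, against 154, 91.8 and 123 CPM under hHKDC1 OE. The groups stood apart in the direction opposite to liver, with a log2 fold change of 0.89 (0.21, adjusted p = 0.134). Klf4 was at 61.6, 43.5 and 45.8 CPM against 32.5, 56.3 and 23.2 CPM, with a log2 fold change of -0.43 (0.33, adjusted p = 0.504). Dusp1 was at 97.3, 93.0 and 73.7 CPM against 55.0, 94.0 and 59.5 CPM, with a log2 fold change of -0.34 (0.24, adjusted p = 0.468). For both genes replicate 2 of hHKDC1 OE lay within the null range while the other 2 hHKDC1 OE libraries lay below it. Over the 6 fat libraries, Pearson's r within groups was 0.90 for Junb with Klf2, 0.94 for Fosb with Egr1, -0.91 for Junb with Dusp1 and -0.95 for Klf2 with Dusp1, again as a description of genes read in the same libraries.

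**Figure D4:**
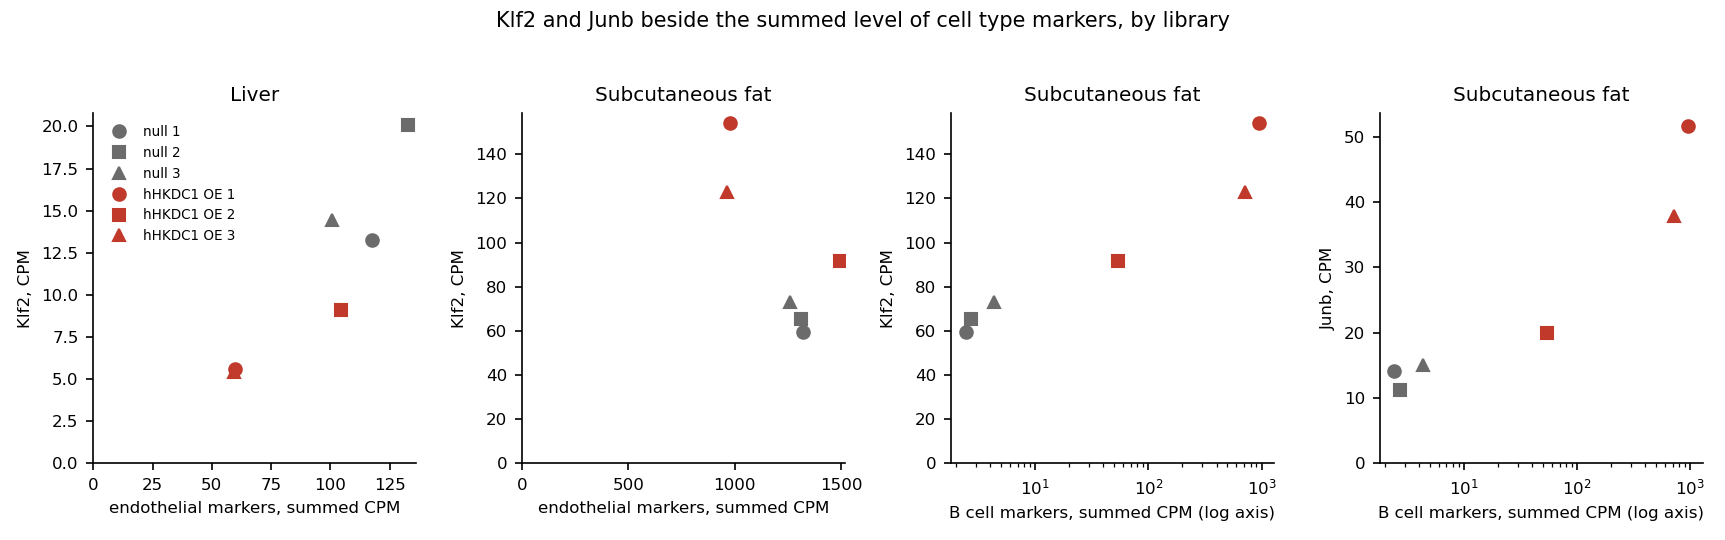
Klf2 or Junb in CPM (linear axis) beside the summed CPM of endothelial markers (linear axis) or B cell markers (log axis) in each library, with grey for null, red for hHKDC1 OE and the shape for the replicate. In liver the 2 hHKDC1 OE libraries with the fewest endothelial counts have the least Klf2, and in fat the order of the hHKDC1 OE libraries by B cell markers is their order by Klf2 and Junb. By T cell and macrophage markers, not drawn, replicate 3 of hHKDC1 OE fat is above replicate 1, unlike Klf2 and Junb.

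Lymphocyte markers moved with the genes that were higher in fat. The 10 B cell markers summed to 2.43, 2.73 and 4.33 CPM in null fat, against 955, 54.5 and 719 CPM under hHKDC1 OE, and the 10 T cell markers to 6.38, 6.76 and 16.2 CPM against 575, 41.9 and 656 CPM. All 10 markers of each list were higher, and replicate 2 of hHKDC1 OE was the hHKDC1 OE library with the lowest sums and with the lowest Junb, Ier2 and Klf2. Egr1 was also lowest in that library, Atf3 and Fosb were not. Macrophage markers ranged from 245 to 518 CPM in null and from 726 to 1158 CPM in hHKDC1 OE fat. Endothelial markers were at 1322, 1311 and 1259 CPM in null and at 977, 1493 and 964 CPM in hHKDC1 OE fat, so replicate 2 was the highest library for these markers and the lowest hHKDC1 OE library for Klf2, while Klf4 and Dusp1 were highest there within hHKDC1 OE. Smooth muscle markers had the same shape, at 306, 315 and 324 CPM against 118, 328 and 79.7 CPM. Keratinocyte markers ranged from 23.1 to 338 CPM in null and from 4.83 to 17.3 CPM in hHKDC1 OE fat. Hepatocyte markers were at 3891, 4110 and 9995 CPM in null fat, against 2998, 1833 and 2622 CPM under hHKDC1 OE, and all 10 had a log2 fold change below 0. The highest of these was replicate 3 of null, the null library that was lowest in Fos, Fosb and Jun. Markers of Kupffer cells (5.02 to 14.2 CPM in null against 27.4 to 354 CPM) and of neutrophils (2.36 to 4.99 against 10.6 to 28.9 CPM) summed higher in hHKDC1 OE fat without overlap. Of the markers tested, 4 of 5 for Kupffer cells, 3 of 3 for neutrophils and 5 of 7 for macrophages had a log2 fold change above 0. Within the Kupffer cell list, Timd4, Marco and Cd5l were at 4.66, 6.53 and 3.76, but Clec4f was at 0.01 and Vsig4 at -0.45. That list thus did not move as a whole. Adipocyte and fibroblast markers overlapped between the groups. The part of these cells in the values of the 10 genes was not tested.

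Without replicate 2 of hHKDC1 OE fat, edgeR called 6 of the 10 genes, where 3251 of the 17190 genes tested (18.9%) were called. Junb rose by 1.72 on the log2 scale (adjusted p = 0.00328), Klf2 by 1.06 (adjusted p = 0.00688), Ier2 by 1.22 (adjusted p = 0.0146) and Egr1 by 0.82 (adjusted p = 0.0247) in this fit. Klf4 fell by 0.86 (adjusted p = 0.0441) and Dusp1 fell by 0.63 (adjusted p = 0.0413). Without replicate 3 of hHKDC1 OE, Klf4 was at -0.18, and without replicate 1 Dusp1 was at -0.20. The 2 hHKDC1 OE libraries that remain without replicate 2 are those with the most lymphocyte markers.

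Other immediate early genes in fat included several with large differences. Of those named below, Egr3, Ier5, Dusp2, Dusp5 and Batf were lowest within hHKDC1 OE in replicate 2. That library also had the lowest B and T cell marker sums of the group. The part of lymphocytes in these values was not tested. Of 24 other transcription genes of the early wave, 23 were tested, 13 higher and 10 lower. Their median was 0.24 on the log2 scale, beside -0.05 over all genes. Egr3, a gene of activated lymphocytes among other cells, was at 3.38 (standard error 0.84, adjusted p = 0.137) and Ier5 at 2.69, while Nr4a1 was at -0.92 and Klf5 at -1.47. Of the 37 feedback genes, 36 were tested, 22 higher and 14 lower (median 0.12), from Dusp2 at 5.28 (1.01, adjusted p = 0.133) and Dusp5 at 3.79 to Errfi1 at -1.19 and Ctgf at -1.41. Dusp2 and Dusp5 encode phosphatases of the family of Dusp1, which itself was at -0.34. Of the other leucine zipper genes 7 of 16 were higher (median -0.13), led by Batf at 3.50 and Batf3 at 1.94, with Atf6 at -0.48 and Jdp2 at -0.51. Batf was at 0.669, 0.620 and 0.749 CPM in null fat against 11.6, 0.538 and 11.2 CPM, so replicate 2 of hHKDC1 OE lay below null. Of the upstream kinases and serum response factor partners 11 of 30 were higher (median -0.12), with Rps6ka1 at 1.81, Mapk11 at 1.21, Mef2c at -0.73 and Rps6ka2 at -1.31. Of the other Kruppel-like factors 3 of 13 were higher (median -0.38), with Klf16 at 0.60, Klf10 at 0.46, Klf5 at -1.47 and Klf14 at -1.48, while Klf2 itself was at 0.89. Klf5 was at 5.59, 1.05 and 1.28 CPM in null fat against 0.426, 1.91 and 0.492 CPM. Klf14 was at 9.85, 3.97 and 11.6 CPM against 0.237, 8.31 and 0.492 CPM. Single libraries weigh on both values. Of the heat shock genes 5 of 15 were higher (median -0.06), with Hspe1 at 1.00, Hsp90aa1 at 0.16, Hspa1a at -0.90 and Cryab at -0.97. None of the genes of these lists passed an adjusted p of 0.05 by edgeR in fat, and 8 of 23, 16 of 36, 3 of 16, 9 of 30, 4 of 13 and 5 of 15, in the order given, had an unadjusted p under 0.05, beside 17.7% of all genes.

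**Figure D5:**
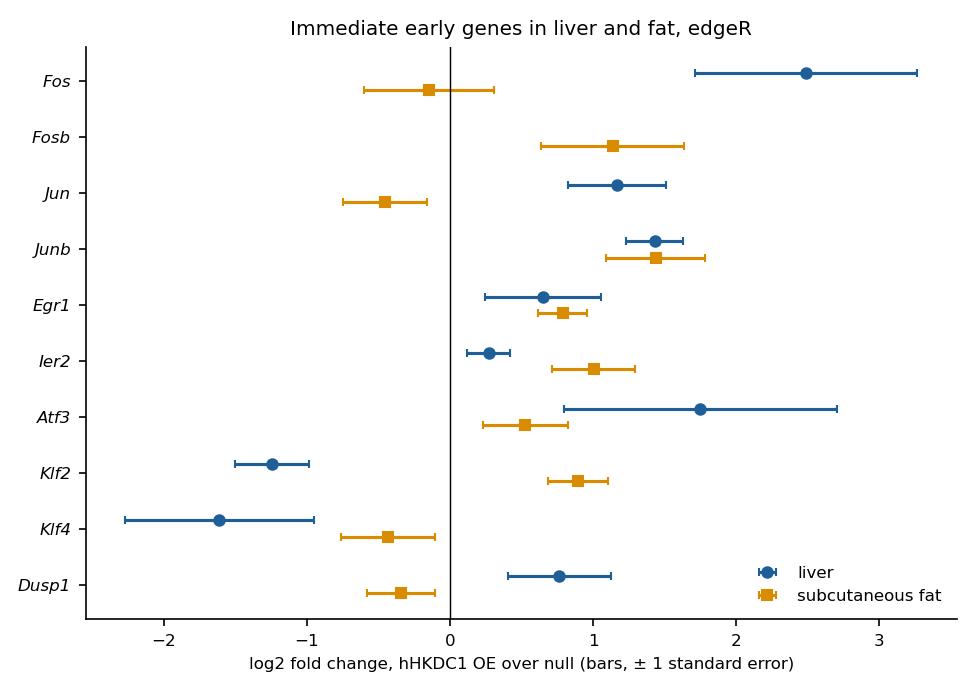
Log2 fold change of hHKDC1 OE over null for each gene in liver (blue circles) and subcutaneous fat (orange squares), with bars of 1 standard error from edgeR and no liver value for Fosb, which did not pass the filter. Junb is at 1.43 in liver and 1.44 in fat, and Klf2 is at -1.24 in liver and 0.89 in fat.

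The difference between the vector effects in fat and in liver was tested over the 12 libraries. It was 2.22 on the log2 scale for Klf2 (standard error 0.35, unadjusted p = 3.17e-05 and adjusted p = 0.139 by edgeR), with 2.11 and an adjusted p of 3.26e-05 by DESeq2. For Junb it was 0.09 (0.41, adjusted p = 0.968), which leaves room for a difference of either sign. For Jun it was -1.54 (0.50, adjusted p = 0.227), for Fos -2.55 (0.97, adjusted p = 0.300) and for Ier2 0.81 (0.34, adjusted p = 0.341). Dusp1 was at -1.02 (0.49), Klf4 at 1.26 (0.70), Atf3 at -1.14 (1.11), Fosb at -2.12 (1.45) and Egr1 at 0.22 (0.47). On leaving out each of the 12 libraries in turn, Klf2 ranged from 1.87 to 2.49, Fos from -3.07 to -2.02 and Jun from -1.94 to -1.11. Ier2 ranged from 0.42 without replicate 3 of hHKDC1 OE fat, and 0.45 without replicate 2 of null fat, to 0.90. Klf4 ranged from 0.63 without replicate 2 of hHKDC1 OE fat to 2.21 without replicate 2 of hHKDC1 OE liver, and Dusp1 from -1.51 to -0.51 without the same libraries. The direction of 3 genes depended on single libraries, with Junb from -0.41 (without replicate 1 of hHKDC1 OE fat) to 0.29, Egr1 from -0.10 (without replicate 3 of null liver) to 0.74 and Atf3 from -1.73 to 0.53, the last values of all 3 without replicate 2 of hHKDC1 OE liver. Fosb was at -0.999 without that library, and without replicate 3 of null liver it had 0 counts in both null liver libraries left. No gene tested passed an adjusted p of 0.05 by edgeR (0% of 17070), and 4 of the 10 (Klf2, Jun, Fos and Ier2) had an unadjusted p under 0.05 against 12.7% of all genes. DESeq2 called Klf2 alone of the 10 against 2.88% of all genes. Without replicate 2 of hHKDC1 OE fat, edgeR called Klf2 at 2.18 (adjusted p = 0.00305), 1 of the 10 genes, against 6.77% of all genes.

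The genes whose profile was most like the mean profile of these genes (9 in liver, without Fosb, and 10 in fat) were named by Pearson's r over the 6 libraries of a tissue, among genes with a mean of at least 5 CPM. In liver, 9065 genes were compared, 40 of them with r above 0.9, among them Lin52 at 0.99, Piga at 0.99, Sirt4 at 0.98 and Wfdc2 at 0.98. In fat, 11731 genes were compared, 43 of them with r above 0.9, led by Ino80e at 0.98, Clec14a at 0.98, Csnk1g1 at 0.97, Zfp703 at 0.96 and Polr3b at 0.96. In both tissues these are the highest values picked from all genes compared over only 6 libraries. They are a description without a test, and unrelated genes can reach such an r. The liver profile was highest in replicate 2 of hHKDC1 OE, at 1.05 on the log2 scale about its mean, and lowest in replicate 3 of hHKDC1 OE, at -0.54, so the groups overlapped. The fat profile was at 0.25, 0.19 and 0.23 in the hHKDC1 OE libraries and at -0.06, -0.12 and -0.48 in the null libraries, so the groups stood apart.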

How the data were processed

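RNA was extracted from liver and subcutaneous fat and sequenced in non-stranded paired-end libraries. Per the submitters' processing notes, reads were mapped with STAR 2.5 and counted per gene with HTSeq 0.6.1. The methods name the human genome, whereas all gene identifiers are of mouse and 98.3% of the positions are those of GENCODE M21 on GRCm38. The deposited count table holds raw counts per gene without normalization, and the deposited FPKM were scaled by the authors for gene length and library. The authors' own fold changes and p-values were deposited too and were not used. Totals were 15496019 to 19954971 counts per library, and replicates were distinct libraries (chi-square per gene 21.8 to 173).

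Each tissue was fitted alone with edgeR 4.0.16 (quasi-likelihood, TMM, filterByExpr, Benjamini-Hochberg) in R 4.3.3, and the interaction over 12 libraries. A call was an adjusted p under 0.05. CPM used TMM factors within a tissue and log2 CPM a prior count of 2. DESeq2 1.42.0, other scalings and filters, 1 fit of 12 libraries, a replicate block and leaving out each library were the alternatives. Scripts were tested on simulated data. The study gives the fat libraries as separate mice. Nothing in the sources used here states it for liver, where p-values may then measure only the spread between libraries. The 10 genes, the other gene lists and the marker lists were chosen with earlier results of these data known. From each list, the 2 highest and 2 lowest log2 fold changes per tissue were named. Ddit3 has 2 rows in the table and was left out. Promoters are RefSeq's on GRCm38.p6. Some results are not reported here.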

Additional observations from a re-analysis of the deposited data

Results flagged for a closer look

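Klf2 was lower than every null library in all 3 hHKDC1 OE libraries of liver and higher than every null library in all 3 hHKDC1 OE libraries of fat. The effect in fat minus the effect in liver was 2.22 on the log2 scale (standard error 0.35). The test of this difference by edgeR gave an adjusted p of 0.139 over 17070 genes, which misses 0.05, and DESeq2 gave 3.26e-05. Groups of 3 libraries are too small for a formal check of single libraries that stand far from the rest. On leaving out each library in turn the difference ranged from 1.87 to 2.49. Among these fits edgeR called it only without replicate 2 of hHKDC1 OE fat (adjusted p = 0.00305).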

How the results depend on the processing

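With DESeq2, 3 of the genes were past the threshold in liver, 4 in fat and 1 for the interaction, where edgeR called 0. The shares of all genes were 0.736%, 7.46% and 2.88%. Without a filter on low counts there were 5 in liver, 1 in fat (Junb) and 2 for the interaction (Jun and Klf2), against 1.32%, 2.69% and 1.53% of all genes. With the 12 libraries in 1 fit there were 3 in fat (Junb, Ier2 and Klf2) against 5.13% of all genes, and 8 between the null groups, where Atf3 and Dusp1 were lost, against 59.6%. Leaving out each library gave 0 to 2 genes in liver, 0 to 6 in fat, 0 to 1 for the interaction and 7 to 10 between the null groups. The highest counts came without hHKDC1 OE replicate 2, of liver for liver and of fat for fat and the interaction. The median of the genes in liver ranged from 0.23 to 1.05 on leaving out each library. Fos in fat turned from -0.15 to 0.0300 with library size alone, and ranged from -0.53 to 0.0703 on leaving out each library. Of the single gene values under the alternatives, 103 of 114 in liver and 112 of 130 in fat stayed on the same side of the threshold in the same direction, 11 and 14 passed it and 0 and 4 changed direction. The replicate numbers were not taken to pair the libraries, since not every correlation of a pair was over 0.1. Deviations of null and hHKDC1 OE libraries with the same number correlated at 0.22, 0.18 and 0.08 in liver and at -0.14, 0.00 and 0.00 in fat. Liver and fat libraries of the same number correlated at 0.30, 0.06 and 0.18 in null and at 0.02, 0.09 and 0.06 in hHKDC1 OE mice, positive in all 6. Those of different numbers ranged from -0.23 to 0.06 in null and from -0.21 to 0.18 in hHKDC1 OE mice. Deviations were taken from group means, so these values are not independent. Whether liver and fat libraries share a mouse is not stated. With the replicate block, edgeR called 1 of the 9 genes tested in liver (Junb, adjusted p = 0.0461) against 0.127% of all genes (17 of 13351). It called 0 of the 10 in fat against 1.03% (168 of 16380), 10 between the null groups against 65.1% and 0 for the interaction against 0.0234%. The causes of these shifts were not tested. Genes with few counts, such as Fosb, Fos, Atf3 and Klf4 in liver, are limited by depth.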
